A study of Rattus norvegicus with 7 samples.

Results

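Genes that interferons induce, and genes that prepare peptides for display on MHC class I molecules, were examined in RNA of crypts from the proximal and the distal colon of the rat. The set was given by 47 gene symbols, named for their known function, of which 44 were found in the table of 16468 genes. For Ifnar2, Nlrc5 and Xaf1 no expression values were analysed here. The rats were Sprague Dawley animals, an outbred laboratory strain, 14 weeks old, with no treatment named in the labels, and crypts are the glands of the colon wall, lined by epithelium in which stem cells renew the absorptive and secretory cells. From each region 1 RNA library was made, pooled from 7 rats, so there was no spread between replicates and every difference below compares these 2 libraries. The 5 chromatin immunoprecipitation libraries of the series were not analysed here.

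Interferons are secreted proteins that cells release when they sense viral nucleic acid or are stimulated as immune cells. Type I interferons act through a receptor of the chains Ifnar1 and Ifnar2, and interferon gamma acts through Ifngr1 and Ifngr2. The type I receptor leads to a complex that holds Stat2 and Irf9 and binds the interferon-stimulated response element (ISRE), and signals of the gamma receptor reach genes through the gamma-activated site (GAS). Among the induced genes are antiviral effectors, sensors of viral RNA, and the immunoproteasome, peptide transporter and B2m that supply class I molecules with peptides. In the gut, basal activity of this pathway in epithelial cells depends in part on the microbes of the lumen.

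The proximal promoters show which of the genes carry the letters of these elements, and the windows below are printed for genes described in full in the text. Of the 47 symbols, 37 matched an entry of the RefSeq promoter table (GRCr8 build), and the 250 bases before each annotated start were searched on both strands. The ISRE core was searched as GAAA, any 2 bases, GAAA, and the GAS core as TTC, any 3 bases, GAA, a motif that reads the same on both strands. The ISRE core was present in 20 of the 37 promoters (54.1%), against 902 of the 27457 promoters of the table, 1 per gene (3.29%). The GAS core was present in 8 of the 37 (21.6%), against 7.52% of all promoters. By role, the ISRE core was found in 12 of 15 promoters of induced effectors, 6 of 9 of peptide processing genes, 1 of 8 of regulators, 1 of 1 of sensors and 0 of 4 of receptors. Matches overlapped one another in Oas1a, Bst2 and Tapbp, and in Bst2 a match of each motif overlapped. A match describes letters in this window and not a bound site.

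The first promoter window holds the 2 ISRE cores of Ifi27, the gene furthest apart between the libraries. It is followed by windows of 6 peptide processing genes and of 2 members of the Ifitm family. Capitals mark the ISRE core, each window is printed 5′ to 3′ on the strand of its gene, and in Tap1 the core lies on the opposite strand and so reads TTTCGGTTTC. The Ifitm3 window also holds a GAS core, left in lower case (ttctgagaa).
Ifi27, chr6:128355122-128355251, plus strand: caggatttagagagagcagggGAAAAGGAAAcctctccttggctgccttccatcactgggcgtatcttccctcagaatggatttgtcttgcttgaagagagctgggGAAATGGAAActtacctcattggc
Psmb10, chr19:50743293-50743380, minus strand: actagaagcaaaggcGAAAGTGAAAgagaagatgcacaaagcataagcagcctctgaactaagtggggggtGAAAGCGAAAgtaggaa
Psme2, chr15:33052780-33052819, minus strand: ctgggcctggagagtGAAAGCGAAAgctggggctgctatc
Tap1, chr20:4668640-4668679, minus strand: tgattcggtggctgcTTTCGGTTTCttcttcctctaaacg
Tap2, chr20:4652313-4652352, minus strand: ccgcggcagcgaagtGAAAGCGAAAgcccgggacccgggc
Tapbp, chr20:4967878-4967918, minus strand: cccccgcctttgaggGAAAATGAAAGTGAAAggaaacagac
B2m, chr3:129549165-129549204, plus strand: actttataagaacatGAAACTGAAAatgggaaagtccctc
Ifitm2, chr1:205482357-205482396, minus strand: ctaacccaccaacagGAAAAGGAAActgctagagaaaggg
Ifitm3, chr1:205541778-205541817, minus strand: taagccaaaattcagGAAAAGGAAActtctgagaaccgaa

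Windows with the GAS core, in capitals, are printed for Irf1 and Irf8, both highly expressed regulators.
Irf1, chr10:38417778-38417816, plus strand: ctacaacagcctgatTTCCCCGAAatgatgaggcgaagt
Irf8, chr19:65699089-65699146, plus strand: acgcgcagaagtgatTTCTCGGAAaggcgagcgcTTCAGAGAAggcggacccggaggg

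Across the set, levels in the libraries were close, and Ifi27 stood out on the distal side. In what follows, proximally and distally mean in the library of that region. Levels are the authors' FPKM (fragment counts relative to transcript length and sequencing depth, a unit taken from the form of the values), and 36 of the 44 genes reached 1 FPKM in at least 1 library. The remaining 8 were Irf4, Ddx58, Ifit1, Ifit3, Mx2, Rsad2, Eif2ak2 and Gbp2. On the log2((distal FPKM + 1)/(proximal FPKM + 1)) scale, where the added 1 shrinks the differences of low genes, 1 of the 36 was higher by 2-fold or more distally and 0 proximally. Among all 9847 genes at this level, 3.71% were that much higher distally and 3.91% proximally, together 7.62%. On this scale 35 of the 36 genes were less than 2-fold apart and 30 less than 1.5-fold (83.3%), a share that was 82.7% over all genes. As plain ratios, Irf5 and Ifitm3 were also over 2-fold apart, both higher proximally.

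Small differences lay more often on the proximal side: 23 of the 36 genes were higher in the proximal library (63.9%), against 38.6% of all 9847 genes. The median log2 ratio of the 36 genes was -0.07, against 0.09 over all genes. This count includes differences far below 2-fold. The authors tested 36 of the 44 genes, and their deposited table called 1, Ifi27, higher distally and 0 higher proximally. Of all rows tested by the authors, 5.43% were called, 2.73% higher distally and 2.69% higher proximally. The lowest q-value of that table among the other 35 was 0.332, for Irf5.

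**Figure D1:**
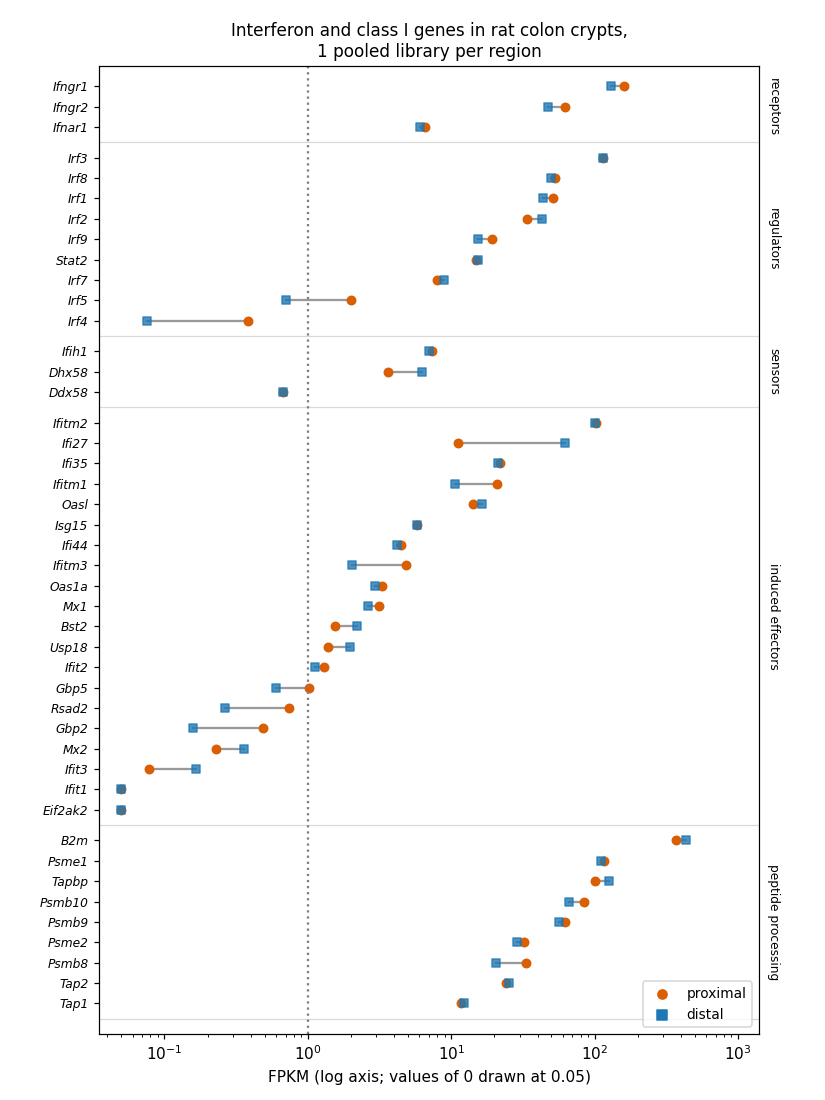
Level of each of the 44 genes in the proximal (circle) and the distal library (square), in FPKM on a log axis, 1 pooled library per region, grouped by role and ordered by mean level; the dotted line is at 1 FPKM and values of 0 are drawn at 0.05. Paired symbols lie close together for most genes above the line, Ifi27 stands at 11.2 and 61.7 FPKM, and the widest gaps among the others are those of low genes such as Irf4 and Irf5.

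**Figure D2:**
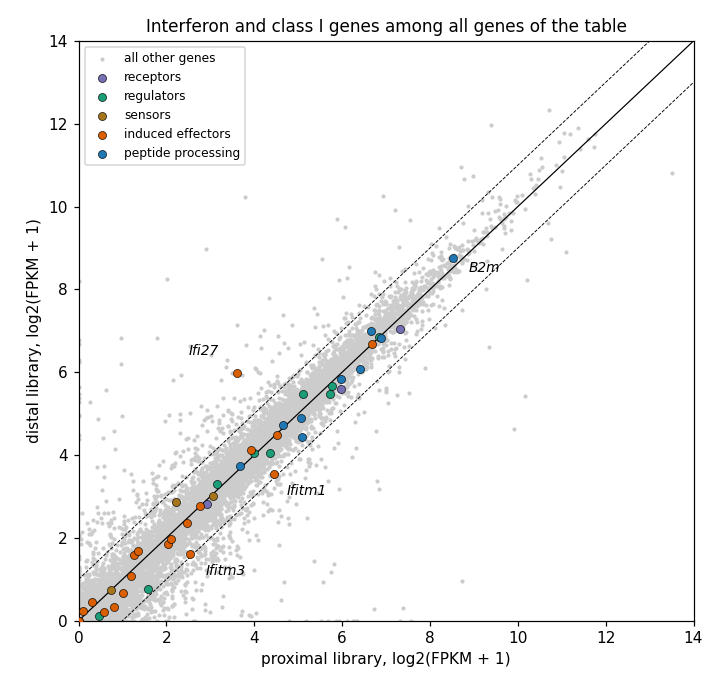
Log2(FPKM + 1) of the distal against the proximal library for all genes (grey) and for the 44 genes (colours by role); the solid line marks equal levels and the dashed lines 2-fold. Of the coloured points Ifi27 lies above the upper dashed line, and Ifitm1 and Ifitm3 lie nearest to the lower one.

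Because each region had 1 library, the errors available are those that the authors' deposited table implies, as the ratio of its log2 fold change to its test statistic. These errors come from the model behind that table and do not measure variation between rats. For 33 of the 36 tested genes the implied standard error ran from 0.29 to 0.85 on the log2 scale, with a median of 0.39. For the other 3, Irf3, Isg15 and Ifitm2, the printed fold change was too near 0 to give one. From the authors' deposited table, the 95% interval of the difference lay within 2-fold in both directions for 17 genes, reached beyond 2-fold for 15, and lay wholly beyond it for 1, Ifi27. For the 15, which include Ifitm1, Ifitm3, Psmb8, Gbp5, Dhx58, Usp18 and Bst2, these libraries do not settle whether the levels were 2-fold apart.

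**Figure D3:**
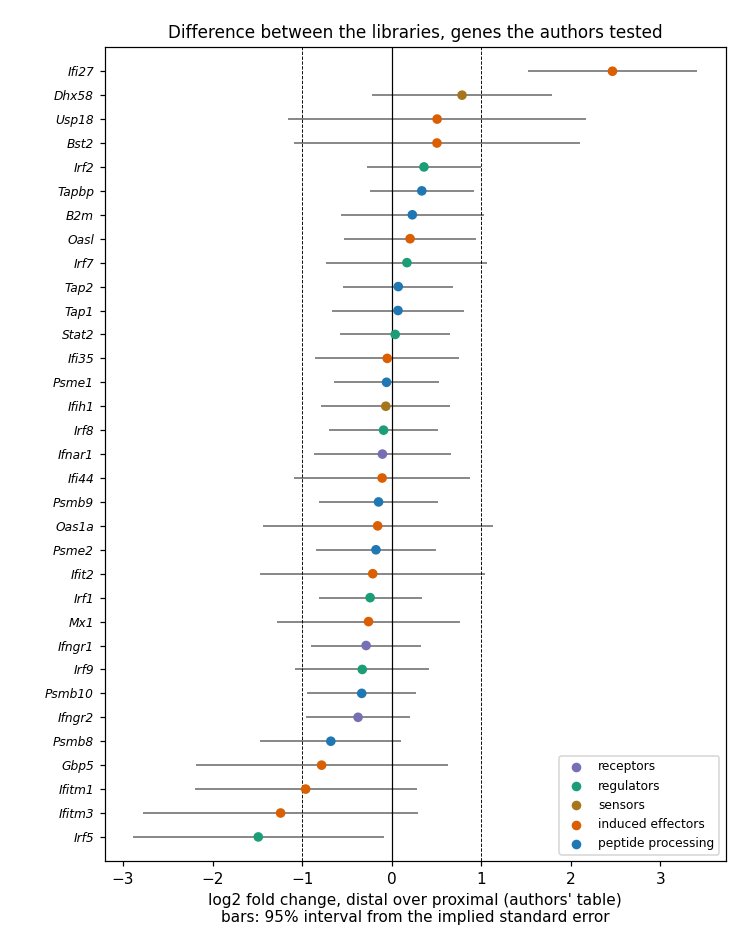
Log2 fold change of distal over proximal from the authors' table for 33 tested genes, with 95% intervals from the implied standard error (bars), ordered by size and coloured by role; dashed lines mark 2-fold. The interval of Ifi27 runs from 1.52 to 3.41, and that of Irf5, the lowest, from -2.89 to -0.09.

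The 3 measured interferon receptor chains of the set were all slightly higher in the proximal library. Of receptor chains outside the set, Il28ra was slightly higher distally, at 5.79 FPKM proximally and 6.48 FPKM distally. Il10rb stood at 58.1 and 52.6 FPKM. Ifngr1, the ligand-binding chain for interferon gamma, stood at 159 FPKM proximally and 130 FPKM distally (1.22-fold). Its partner Ifngr2, which recruits the kinase Jak2, stood at 61.9 and 47.7 FPKM (1.30-fold). Ifnar1, a chain of the type I receptor, was much lower in both regions, at 6.56 and 6.10 FPKM, so the level of Ifngr1 was 24.2 times that of Ifnar1 proximally and 21.4 times distally. The log2 fold change of Ifngr1 in the authors' deposited table was -0.29 (implied error 0.31), and that of Ifngr2 was -0.38 (implied error 0.29). Neither was called. The receptors' median log2 ratio was -0.28 over 3 genes.

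Among the transcription factors, 8 of 9 reached 1 FPKM and none of these was 2-fold apart on the log2(FPKM + 1) scale (median -0.05). Irf3, a latent factor that is phosphorylated once viral nucleic acid is sensed, was the highest, at 114 FPKM proximally and 114 FPKM distally. It shares its locus in the table with Bcl2l12, so its value can hold reads of that gene. Irf8, a factor best known from myeloid and B cells, followed at 53.1 and 49.9 FPKM. For Irf8 the interval from the authors' deposited table ran from -0.70 to 0.52 around a log2 fold change of -0.09. Irf1, an early target of interferon gamma, stood at 51.7 and 43.7 FPKM.

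The repressor Irf2, which competes with Irf1 for its sites, went the other way, at 33.5 FPKM proximally and 43.0 FPKM distally (1.28-fold). Irf9 stood at 19.3 and 15.4 FPKM and its partner Stat2 at 14.99 and 15.4 FPKM. Irf7, which amplifies the type I response, stood at 7.93 and 8.92 FPKM. These factors all lay within 1.5-fold. Irf5, which acts below Toll-like receptors in myeloid cells, was 2.81-fold higher proximally as a plain ratio, at 1.99 against 0.707 FPKM. Its log2 fold change in the authors' deposited table was -1.49 (implied error 0.71) at a p-value of 0.0369 and a q-value of 0.332. Irf4, a factor of lymphocytes and plasma cells, stood at 0.381 and 0.0753 FPKM. Both lie below the floor of 0.426 FPKM, so no plain ratio is given. That floor is the level of 3 reads for a transcript of about 942 bases in the proximal library, and longer transcripts reach 3 reads at lower FPKM. The authors' deposited table lists a log2 fold change of -2.34 for Irf4 (implied error 0.87) and marks it as not tested.

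Most markers of white blood cells were lower in the distal library. Of the 44 genes of the set, 26 had lower values there and 16 had higher ones. Irf4, Irf5, Gbp2 and Gbp5 were among the 26, with Irf4 and Gbp2 under 1 FPKM in both libraries. Of the 36 measured genes of the set, 23 were higher proximally (63.9%) and 13 distally, against 38.6% of all genes higher proximally. Of 42 leukocyte markers, 38 were in the table and 26 reached 1 FPKM. Of these, 16 were higher by 2-fold or more proximally and 0 distally on the log2(FPKM + 1) scale, against 3.91% and 3.71% of all genes. The 16 were 6 of 6 measured B and plasma cell markers, 5 of 5 pan-leukocyte, 4 of 11 T and natural killer cell, and 1 of 4 macrophage and dendritic cell markers. The summed level of 5 pan-leukocyte markers was 59.7 FPKM proximally and 14.0 FPKM distally. For 7 B and plasma cell markers the sums were 32.3 and 1.46 FPKM, and for 15 T and natural killer cell markers 44.3 and 19.6 FPKM. The latter markers differed among themselves: Nkg7 stood at 11.4 FPKM proximally and 2.36 FPKM distally, and Cd3g at 6.37 and 6.49 FPKM. Sums of 11 macrophage and dendritic cell markers were 119 and 122 FPKM, and 17.6 and 6.498 FPKM without Cd14, which was left out after its values were seen. Emr1 and Cd163, defining macrophage genes, were listed at 0 in both libraries, and Mzb1 and Batf3 at 0 in the distal one. Emr1 lies on sequence not placed on a chromosome, and a listed 0 does not show that a transcript was absent. In pooled crypts, fewer cells of a type and less RNA per cell cannot be told apart, and the part of these cells in the values of genes higher proximally, among them Irf5, Gbp5, Ifitm1, Ifitm3 and the immunoproteasome subunits, was not tested. Irf8, which such cells also express, was 1.06-fold higher proximally, and their part in its value was not tested either.

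Epithelial markers were abundant in both libraries. Of 11 epithelial markers 10 were in the table and 9 were measured, all 9 higher in the distal library by less than 2-fold, with a median log2 ratio of 0.42. Epcam stood at 1490 and 1991 FPKM. Cldn3, on an unplaced contig of chromosome 12, was listed at 0 in both libraries, which does not show that its transcript was absent. Markers of stroma and vessels were near the floor, with 10 of 12 in the table and sums of 3.56 FPKM proximally and 6.42 FPKM distally. Only 3 of them were measured. Des, at 0.0398 FPKM proximally and 2.91 FPKM distally, was called higher distally in the authors' deposited table. The other 2, Myh11 and Pecam1, were less than 2-fold apart. Whether this difference in epithelial markers bears on the values of the interferon genes was not tested.

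Cytosolic sensors of viral RNA were low in both regions. Ifih1, which encodes MDA5, stood at 7.35 FPKM proximally and 7.02 FPKM distally. Dhx58, which encodes LGP2, a regulator of the other sensors, was 1.72-fold higher in the distal library, at 3.64 against 6.27 FPKM. Its log2 fold change was 0.79 in the authors' deposited table, where the implied error was 0.51. Ddx58, which encodes RIG-I, was equal, at 0.669 and 0.674 FPKM. No sensor was called.

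Ifi27 was the exception among the induced effectors of the set. It encodes a small hydrophobic protein induced by type I interferon, also called ISG12, and lies at chr6:127725194-127731665 (rn4). Its level was 11.2 FPKM proximally and 61.7 FPKM distally, a difference of 5.52-fold. On the log2(FPKM + 1) scale its ratio of 2.36 ranked 61 among 9847 genes on the distal side. Its log2 fold change in the authors' deposited table was 2.47 (implied error 0.48), and its q-value was 2.52e-05. Its neighbour and relative Ifi27l2b, 1874 bases away, stood at 78.4 and 93.2 FPKM (1.19-fold). In the authors' deposited table the log2 fold change of Ifi27l2b was 0.25 with an interval from -0.57 to 1.07, which does not reach that of Ifi27. The difference between both genes was not tested.

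The Ifitm genes encode small membrane proteins that hinder the entry of viruses into cells and their levels differed widely from one another within each library. Ifitm2, at chr1:201134357-201135537 (rn4), was the highest of the induced effectors, at 102 FPKM proximally and 101 FPKM distally. Ifitm1 was 1.95-fold higher proximally, at 20.8 against 10.7 FPKM. Ifitm3 was 2.36-fold higher proximally as a plain ratio, at 4.83 against 2.04 FPKM. For Ifitm1 the log2 fold change of the authors' deposited table was -0.96 (implied error 0.63) and for Ifitm3 it was -1.24 (implied error 0.78), and neither was called. With the libraries set to equal upper quartiles, both passed 2-fold on the proximal side of the log2(FPKM + 1) scale, at -1.06 for Ifitm1 and -1.05 for Ifitm3. These genes have near-identical relatives in the genome, and how reads common to them were counted is not known here.

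The classical antiviral effectors were low in both libraries. Isg15, a ubiquitin-like modifier, stood at 5.80 FPKM proximally and 5.80 FPKM distally. Usp18, the protease that removes Isg15 from proteins and dampens the type I receptor, stood at 1.39 and 1.98 FPKM. Mx1, a GTPase that blocks viral replication in the nucleus, stood at 3.13 and 2.61 FPKM, and Mx2, which lies in the same stretch of chromosome 11, at 0.229 and 0.360 FPKM. Of the oligoadenylate synthetase family, whose products activate the nuclease RNase L, Oas1a stood at 3.29 and 2.95 FPKM. Oasl, a family member that does not depend on this nuclease, was higher at 14.3 and 16.4 FPKM. None of these genes differed by 1.5-fold on the log2(FPKM + 1) scale, which shrinks differences at such levels, and the intervals of Usp18, Mx1 and Oas1a from the authors' deposited table reached beyond 2-fold.

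Ifit proteins bind viral RNA, and the gene cluster on chromosome 1 was near the floor in both regions: Ifit2 stood at 1.30 and 1.12 FPKM, Ifit3 at 0.0787 and 0.167 FPKM, and Ifit1 was listed at 0 in both. The antiviral enzyme Rsad2 (viperin) stood at 0.740 and 0.266 FPKM. Eif2ak2, which encodes the RNA-dependent kinase PKR, was also listed at 0 in both libraries, on an unplaced contig of chromosome 6 in the table. A listed 0 does not show that the transcript was absent.

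Among the other induced genes, Ifi35 stood at 21.99 and 21.2 FPKM and Ifi44 at 4.49 and 4.17 FPKM, both close together. Bst2, which encodes tetherin, a protein that holds budding virus at the cell surface, stood at 1.55 and 2.21 FPKM. Guanylate-binding proteins, which attack the vacuoles of intracellular pathogens, were low: Gbp5 stood at 1.03 and 0.597 FPKM and Gbp2 at 0.489 and 0.159 FPKM. The intervals of Bst2 and Gbp5 reached beyond 2-fold, and Gbp2 was not tested by the authors. Over the 14 measured induced effectors the median log2 ratio was -0.07, with 5 genes higher distally and 9 proximally.

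By summed level, genes of peptide processing were the highest of the 5 role groups, at 833 FPKM proximally and 881 FPKM distally. B2m made up a large part of these sums. On the log2(FPKM + 1) scale all 9 were less than 2-fold apart, as were 92.4% of all genes. B2m, the light chain common to class I molecules, stood at 369 FPKM proximally and 433 FPKM distally, above 99.2% of the genes of the table by mean level. From the authors' deposited table, the log2 fold change of B2m was 0.23 and its interval ran from -0.57 to 1.03. Psme1, a subunit of the PA28 activator that opens the proteasome, stood at 116 and 112 FPKM. It shares its locus in the table with Fam158a. Its partner Psme2 was lower, at 32.4 and 28.7 FPKM. Tapbp, which encodes tapasin, the bridge between the peptide transporter and class I molecules, stood at 100.3 FPKM proximally and 127 FPKM distally (1.26-fold).

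The immunoproteasome subunits were all somewhat higher in the proximal library. Psmb10 stood at 84.2 FPKM proximally and 66.7 FPKM distally (1.26-fold), Psmb9 at 62.3 and 56.2 FPKM (1.11-fold) and Psmb8 at 33.1 and 20.6 FPKM (1.60-fold). Psmb8 had a log2 fold change of -0.68 (implied error 0.40) in the authors' deposited table, with a q-value of 0.579. The summed pan-leukocyte markers were 4.26-fold higher in the same library, and the part of white blood cells in the subunit values was not tested. Interferon replaces the constitutive subunits Psmb5, Psmb6 and Psmb7 by Psmb8, Psmb9 and Psmb10. The level of Psmb8 was 0.356 of that of Psmb5 proximally and 0.198 distally. For Psmb9 against Psmb6 the ratio of levels was 2.05 and 1.92, and for Psmb10 against Psmb7 it was 0.852 and 0.684. The pairs were set by known replacement, and their ratios were computed after the levels had been seen. All 3 ratios were lower in the distal library, and as ratios within a library they do not depend on how the libraries were scaled. No error was computed for them. The implied errors of single genes were 0.34 for Psmb9, 0.44 for Psmb6, 0.31 for Psmb10 and 0.30 for Psmb5. None of the subunits in these pairs was called.

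The transporter that carries peptides into the endoplasmic reticulum is a pair of Tap1 and Tap2, and both were nearly equal. Tap1 stood at 11.7 FPKM proximally and 12.3 FPKM distally and Tap2 at 24.1 and 25.3 FPKM, so that the ratio of Tap1 to Tap2 was 0.487 and 0.486. Tap2, Psmb8, Tap1 and Psmb9 lie side by side in the MHC region of chromosome 20 in rn4, with Tap2 starting at 4770446 and Psmb9 ending at 4806608. The gap between Tap1 and Psmb9 is 456 bases. Of these neighbours Psmb8 was 1.60-fold apart and the others lay within 1.11-fold. Over the 9 peptide processing genes the median log2 ratio was -0.06, with 4 genes higher distally and 5 proximally.

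Other genes of the pathway were taken from 5 lists of known function. Of 136 listed genes 109 were in the table and 91 were measured. On the log2(FPKM + 1) scale, 2 of the 91 were higher by 2-fold or more distally and 3 proximally, against 3.71% and 3.91% of all genes. Less than 2-fold apart were 94.5% of the 91, a share that was 92.4% over all genes. Their median log2 ratio was 0.09, as over all genes. Of them, 1 was called higher distally and 2 proximally in the authors' deposited table, which called 2.73% and 2.69% of all rows tested. Interferon genes were at or near 0: Ifnb1, Ifna1 and Ifna4 were listed at 0 in both libraries, and Ifng stood at 0.270 FPKM proximally and was listed at 0 distally. Of these Ifna4 lies on an unplaced contig of chromosome 3. The list of ligands and of JAK and STAT pathway genes held 13 measured genes, none of them a ligand. None of the 13 was 2-fold apart on the log2(FPKM + 1) scale. As plain ratios, Socs3 of this list was 2.21-fold higher proximally, at 8.43 against 3.82 FPKM. Phf11, of the other induced genes, was 2.82-fold higher distally, at 0.498 against 1.40 FPKM. Neither Socs3 nor Phf11 was called.

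Induced genes outside the set included the 3 that were at least 2-fold higher proximally on the log2(FPKM + 1) scale. Epsti1 stood at 26.5 and 6.92 FPKM (3.83-fold), Lgals3bp, a secreted glycoprotein, at 18.9 and 7.53 FPKM (2.51-fold), and the chemokine Cxcl11 at 14.96 and 4.57 FPKM (3.27-fold). Cxcl11 shares its locus in the table with Cxcl10. The authors' deposited table called Epsti1 (log2 fold change -1.94, q-value 0.000307) and Lgals3bp (-1.33, q-value 0.0246), and not Cxcl11 (q-value 0.0851). Leukocyte markers were higher in the same library as these 3 genes, and their part in that was not tested.

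Class I heavy chains and loading partners had a median log2 ratio of 0.14 over 23 measured genes, against 0.09 over all genes. Of the 23, 16 were higher distally and 7 proximally (30.4%), against 38.6% of all genes higher proximally. The classical heavy chain RT1-A2 stood at 60.6 FPKM proximally and 71.7 FPKM distally. Heavy chain genes are near-identical copies that share loci in the table, so their values are uncertain. The chaperone Calr was the highest of this list by mean level, at 406 and 457 FPKM, and Pdia3, an oxidoreductase of the loading complex, stood at 410.1 and 444 FPKM. On the log2(FPKM + 1) scale, the 2 genes at least 2-fold higher distally were Cd1d1 and RT1-N2. Cd1d1, a class I-like molecule that presents lipids, stood at 3.49 and 12.2 FPKM (3.49-fold). RT1-N2 was listed at 0 in the proximal library and 1.37 FPKM in the distal one. In the authors' deposited table Cd1d1 had a log2 fold change of 1.80 and a q-value of 0.0104. The 15 measured constitutive proteasome genes had a median of 0.10, and 0 were 2-fold apart. Sensing adaptors had a median of -0.17 over 8 genes, and the highest by mean level was Myd88, the adaptor of most Toll-like receptors, at 32.6 and 42.7 FPKM. Mavs, the adaptor of RIG-I and MDA5, stood at 35.02 and 29.1 FPKM.

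**Figure D4:**
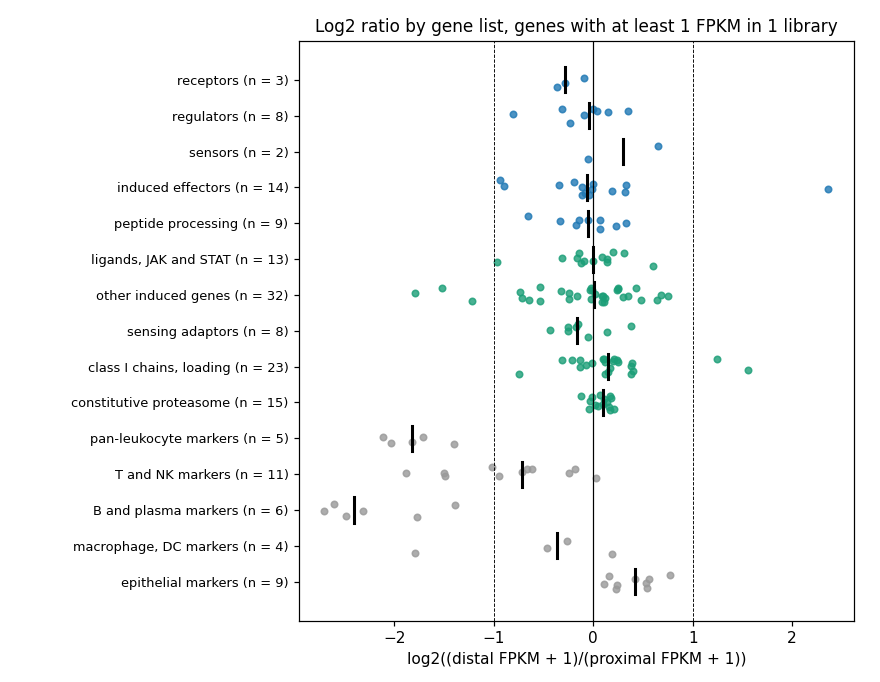
Log2 ratio of distal over proximal, log2((distal FPKM + 1)/(proximal FPKM + 1)), for measured genes (points) of the set by role (blue), of other pathway lists (green) and of cell type markers (grey), with the median of each list as a bar; dashed lines mark 2-fold. Medians of the 5 role groups lie between -0.28 and 0.29, while those of the pan-leukocyte and B cell markers lie at -1.82 and -2.41.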

How the data were processed

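Messenger RNA was measured in 2 libraries, 1 per colon region, assigned through the sample titles and the sample names printed in the deposited table. Per the submitters' processing notes the RNA samples go with CASAVA, TopHat2 and the build rn4; the program that made the table is not named in the labels or file headers. The deposited values were taken as the authors' FPKM, since they are not whole and sum to 413026 and 463561. The p-value and q-value columns are the authors' own, per the file headers, and the p-value equals the two-sided normal tail of the test statistic to within 2.76e-06.

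Of 16492 rows, 23 marked as low in data or failed and 1 given again were left out. Ratios used a pseudocount of 1 FPKM, and a gene counted as measured from 1 FPKM in either library. No test between regions was made, since each had 1 library. Folds were left out below 0.426 FPKM in the lower library, about 3 reads, taken from the commonest p-value of genes at 0 in the other library (8 olfactory receptor genes); sequencing depth is otherwise unknown. Implied standard errors were not taken where the log2 fold change was under 0.02. Positions are 1-based. All 44 genes are accounted for; values are given in full for those at least 2-fold apart or called and the 2 highest of each role. Single values of some genes of the other pathway lists are not reported here. The members and lists were chosen with earlier results of these data known. Python 3.11.15, pandas 2.3.3 and NumPy 2.4.6 were used, and the ratio script was tested on simulated data. Alternatives were other pseudocounts, minimums, thresholds and scalings, and leaving out genes that share a locus.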

Additional observations from a re-analysis of the deposited data

How the results depend on the processing

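Ifi27 was higher by 2-fold or more distally under all 9 alternatives tried. Only the other pseudocounts and scalings can change its log2 ratio, which then lay between 2.04 and 2.45. The minimums, the thresholds and leaving out shared loci left that ratio at 2.36. The count on that side was 2 with a threshold of 1.5-fold, by the addition of Dhx58, and 1 otherwise. On the proximal side the count of 0 became 1 with distal values scaled so that the median log2 ratio was 0 (Ifitm3), 2 with equal upper quartiles (Ifitm1 and Ifitm3), 2 with a pseudocount of 0.1 FPKM (Irf5 and Ifitm3) and 4 at 1.5-fold (Irf5, Ifitm1, Ifitm3 and Psmb8). These rescalings moved the distal library by -0.10 and -0.17 on the log2 scale. With equal upper quartiles the medians were -0.22 for all measured genes of the set, -0.21 for induced effectors, -0.23 for peptide processing, -0.45 for receptors, -0.22 for regulators and 0.15 for sensors, against -0.06 for all 9824 genes then measured. With the median set to 0 they were -0.16 for peptide processing, -0.39 for receptors and -0.15 for regulators. The median of the sensors was 0.0046 with no minimum and 0.17 with a pseudocount of 5 FPKM. The other 44 values of counts and medians moved by at most 0.1 on the log2 scale or kept their count. No paired analysis was possible because each region had 1 library. Depth is unknown; 8 of 44 genes stayed under 1 FPKM. Of 33 intervals 15 reached beyond 2-fold, that of the abundant B2m among them, and the part of depth in this was not tested.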
